A study of Mus musculus with 7 samples.

Results

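The genes described here are 10 members of the NF-κB system: the 5 Rel family subunits Nfkb1, Nfkb2, Rel, Rela and Relb, and the 5 inhibitor or feedback genes Nfkbia, Nfkbie, Nfkbiz, Tnfaip3 and Bcl3. They were found by symbol, and all 10 were among the 23420 gene rows of the expression table and passed the filter on low values. RNA came from ventricle of 7 untreated mice aged 3 to 6 weeks, labelled as heart, in a series on myocarditis caused by immune checkpoint inhibitors (ICI). The 4 control mice were Ctla4+/+ and the 3 ICI-myocarditis mice were Ctla4+/-. All 7, controls included, were labelled Pdcd1-/-, so both groups lacked PD-1 and the controls are not wild type. Ctla4 and Pdcd1 encode receptors that restrain T cells. The labels do not say in which cells Pdcd1 and Ctla4 were disrupted, or whether animals shared a litter. The p-values rest on the spread between these 7 libraries and treat them as independent, which would not hold if animals shared a litter.

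NF-κB is a dimer of Rel family proteins. In resting cells it is held in the cytoplasm by IκB proteins such as those encoded by Nfkbia (IκBα) and Nfkbie (IκBε). Signals from cytokine, Toll-like and antigen receptors activate a kinase complex that marks IκB for destruction, and the freed dimer enters the nucleus and switches on inflammatory genes. Among those genes are several of its own inhibitors, so the pathway limits itself. In heart tissue it is active in infiltrating leukocytes, in endothelium and fibroblasts, and in stressed cardiomyocytes.

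The promoters of 2 of the members that rose are shown first, with those of 2 members that did not pass the test. RefSeq promoter windows (GRCm38.p6) matched 7 of the 10 members, and the 250 bases upstream of each start were searched on both strands. The motif was the κB consensus, the site that Rel dimers bind. It occurred upstream of Nfkb2, Rel, Nfkbia, Nfkbie and Tnfaip3, 5 of the 7, and upstream of 4.46% of the 27025 genes in the table. In the stretches below, written 5′ to 3′ on the strand of the gene and trimmed of annotated exons, capitals mark bases inside a match. Tnfaip3 and Nfkbie rose in ICI-myocarditis, whereas Nfkbia and Rel did not pass the test.
Tnfaip3: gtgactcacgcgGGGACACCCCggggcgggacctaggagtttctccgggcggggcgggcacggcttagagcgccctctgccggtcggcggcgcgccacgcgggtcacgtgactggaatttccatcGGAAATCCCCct
Nfkbie: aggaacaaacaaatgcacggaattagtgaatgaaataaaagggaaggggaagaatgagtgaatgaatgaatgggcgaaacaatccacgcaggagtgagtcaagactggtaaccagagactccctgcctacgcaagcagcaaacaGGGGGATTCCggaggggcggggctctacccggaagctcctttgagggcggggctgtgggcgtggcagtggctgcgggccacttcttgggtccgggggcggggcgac
Nfkbia: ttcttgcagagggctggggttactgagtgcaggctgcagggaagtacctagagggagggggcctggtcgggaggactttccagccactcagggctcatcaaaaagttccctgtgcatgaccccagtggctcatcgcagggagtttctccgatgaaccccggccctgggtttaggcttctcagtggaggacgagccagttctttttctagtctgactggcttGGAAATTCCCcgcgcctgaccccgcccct
Rel: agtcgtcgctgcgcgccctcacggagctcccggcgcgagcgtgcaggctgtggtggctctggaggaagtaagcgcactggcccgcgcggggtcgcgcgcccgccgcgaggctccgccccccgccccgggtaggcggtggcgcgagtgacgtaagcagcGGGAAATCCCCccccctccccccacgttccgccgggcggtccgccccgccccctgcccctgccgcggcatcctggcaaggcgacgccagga
These stretches lie at chr10:19015411-19015547 for Tnfaip3, chr17:45555450-45555699 for Nfkbie, chr12:55492648-55492897 for Nfkbia and chr11:23770971-23771219 for Rel. All but that of Nfkbie are on the minus strand. Tnfaip3 held a match at 125 to 116 bases and another at 12 to 3 bases before its start. The window of a further start of Tnfaip3 held no match. The Nfkbie match lay 106 to 97 bases, the Nfkbia match 29 to 20 bases and the overlapping Rel matches 92 to 82 bases before the start. The Nfkb2 matches fell partly in annotated exons and are not printed. No match was found upstream of Rela or of Bcl3, which also rose, and only stretches that hold a match are printed. A match is a description of letters and was not tested as a binding site. Nfkb1, Relb and Nfkbiz were not among the windows.

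Recovered read totals ranged from 20931730 to 39037176 per library. The members had between 56 reads (Nfkbie in control 4) and 5452 reads (Nfkb1 in ICI-myocarditis 3). Summed cardiomyocyte markers were at least 759400 normalized counts in every library. Neither targeted gene checked the genotype. Ctla4 had 29.2 to 113 normalized counts in controls and 251 to 373 in ICI-myocarditis, and Pdcd1 had 2.50 to 244 and 1096 to 1481. The exons that gave the Pdcd1 reads are not known from a table of gene totals. Control 2 stood apart from the other controls, with a first principal component score of 2.25 against -96.7 to -61.2 for the other controls and 58.9 to 105 for ICI-myocarditis.

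Of the 5 inhibitor and feedback members 4 rose in ICI-myocarditis hearts, and 0 of the 5 Rel family subunits passed the test. Tnfaip3, Nfkbie, Bcl3 and Nfkbiz were higher by 4.27, 4.54, 3.52 and 3.25-fold, and Nfkbia differed by 1.30-fold without passing. The subunits differed by 1.25-fold (Rela) to 1.57-fold (Relb). These folds come from differences between group means of log2 values and are not ratios of the mean counts given below. In bulk tissue, more cells of a type and more RNA per cell cannot be told apart. Thus 4 of 10 members passed limma's adjusted p threshold of 0.05 as higher and 0 as lower, where 11.7% of the 15258 genes tested passed as higher, 4.00% as lower and 15.7% in either direction. All 10 members had differences above 0, as did 48.1% of genes tested. At an unadjusted p under 0.05 the members numbered 6, all higher, against 17.7% of all genes tested. By edgeR 3 members passed, where 10.3% of all genes tested were called higher. By DESeq2 4 passed (14.2% of genes higher) and by limma-voom 6 (16.3% of genes higher). All ICI-myocarditis libraries lay above all controls for 5 members, against 17.3% of genes tested. The median log2 fold change was 0.59 over the 10 members and -0.02 over all genes tested. Differences compare ICI-myocarditis with control as log2(normalized count + 1), which understates the change of low genes. A normalized count is the number of reads after division by a scaling factor of the library.

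**Figure D1:**
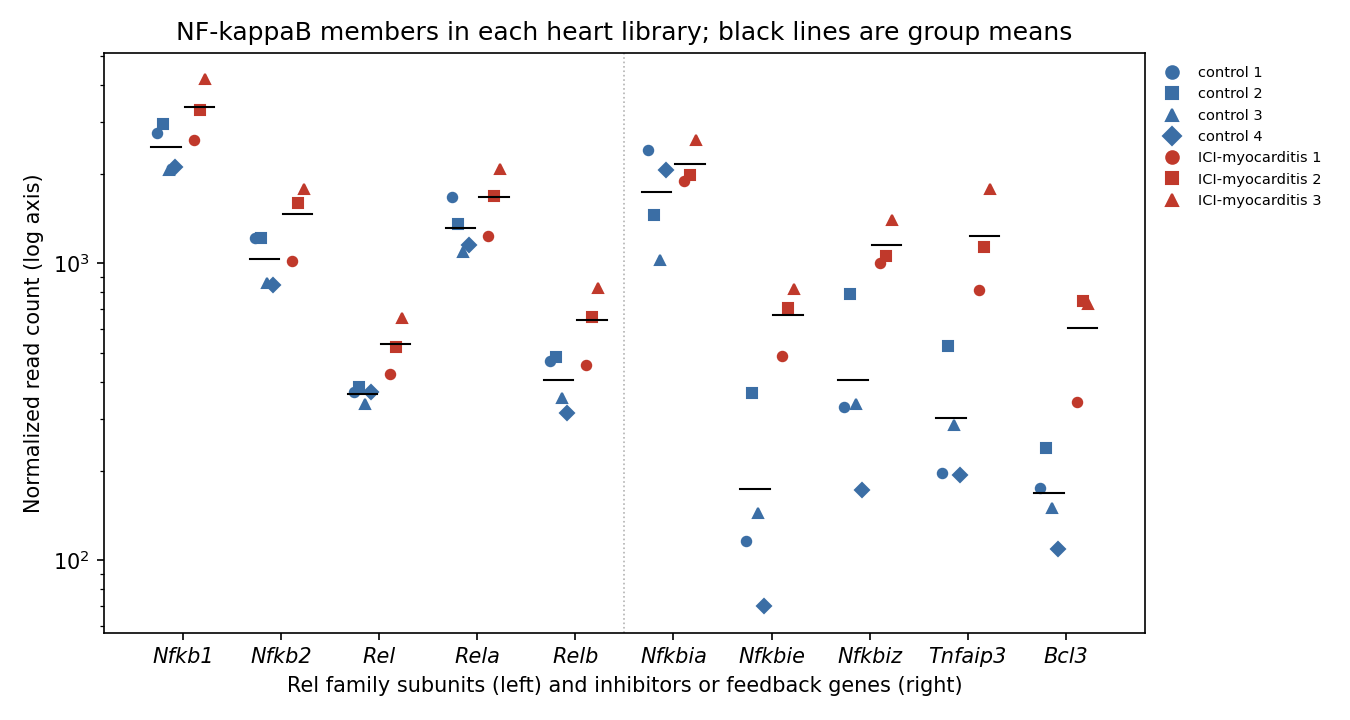
Normalized read counts on a log axis (vertical) for the 10 members (horizontal), with each symbol 1 library, controls in blue, ICI-myocarditis in red and group means as black lines. For Nfkbie, Nfkbiz, Tnfaip3, Bcl3 and Rel every red symbol lies above every blue one, and control 2 is the highest control for 7 of the 10 genes.

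Among the subunits, Nfkb1 encodes p105, the precursor of p50, and lies at chr3:135584655-135691547 on the minus strand (GRCm38, GENCODE M21). Controls 1 to 4 had 2751, 2951, 2067 and 2117 normalized counts, and ICI-myocarditis 1 to 3 had 2601, 3281 and 4166. The groups overlapped because ICI-myocarditis 1 lay below controls 1 and 2. The difference was 0.43 on the log2 scale (SE 0.231, 95% interval -0.09 to 0.95, limma adjusted p = 0.251). Rela, which encodes p65, the main activating subunit of the canonical pathway, lies at chr19:5637483-5648130 on the plus strand. Its counts were 1673, 1356, 1089 and 1155 in controls and 1235, 1686 and 2081 in ICI-myocarditis. Control 1 lay just below ICI-myocarditis 2 and above ICI-myocarditis 1, and the difference was the smallest of the 10 (0.33, SE 0.237, interval -0.21 to 0.86, limma adjusted p = 0.398). Without ICI-myocarditis 3 the differences were 0.26 for Nfkb1 and 0.15 for Rela, and without ICI-myocarditis 1 that of Rela was 0.53.

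Rel encodes c-Rel, a subunit best known from lymphocytes and myeloid cells. Its counts were 369, 382, 336 and 368 in controls and 426, 522 and 654 in ICI-myocarditis. It was the only subunit whose groups did not overlap, and its controls were the tightest of all members, with an SD of 5.40% of their mean. It nonetheless missed the threshold (0.53, SE 0.203, interval 0.08 to 0.99, limma adjusted p = 0.112).

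The noncanonical arm, driven by lymphotoxin, CD40 and related receptors, uses Nfkb2 (p100, the precursor of p52) and Relb. Nfkb2 had 1218, 1215, 859 and 845 normalized counts in controls and 1018, 1591 and 1785 in ICI-myocarditis (a difference of 0.48, SE 0.252, interval -0.08 to 1.05, limma adjusted p = 0.234). ICI-myocarditis 1 lay among the controls, and the difference was 0.32 without ICI-myocarditis 3 and 0.73 without ICI-myocarditis 1. Of the 4584 exonic bases of Nfkb2, 830 are shared with genes on the opposite strand (Psd and AC114539.1), and whether the counting used strand is not given in the sources used here. Relb had 469.8, 482, 353 and 314 in controls and 453, 659 and 824 in ICI-myocarditis. Again ICI-myocarditis 1 fell below controls 1 and 2, and the difference of 0.65 did not pass (SE 0.261, interval 0.07 to 1.24, limma adjusted p = 0.128). With limma-voom and quality weights both Rel and Relb passed (adjusted p = 0.0413 and 0.0344), and in the other 17 alternatives neither did. The upper ends of the 5 intervals ran from 0.86 to 1.24 on the log2 scale, so the missed thresholds do not show that levels were alike.

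Tnfaip3 encodes A20, a ubiquitin-editing enzyme that shuts down signalling to NF-κB, and lies at chr10:19000910-19015657 on the minus strand. Its normalized counts were 197, 527, 285 and 194 in controls and 813, 1133 and 1777 in ICI-myocarditis. Every ICI-myocarditis library exceeded every control, and control 2 was the highest control. The mean count rose from 300.5 ± 157 (SD, n = 4) to 1241 ± 491 (SD, n = 3). The difference between group means of log2 values was 2.10 ± 0.391 (± SE, adjusted p from limma = 0.00866). The call held in all 18 alternatives, and without control 2 the value was 2.41 (limma adjusted p = 0.000643).

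Bcl3 encodes a nuclear IκB-like protein that works with p50 and p52 dimers, and lies at chr7:19808462-19822770 on the minus strand. Its counts were 175, 238, 149.6 and 109 in controls and 342, 748 and 728 in ICI-myocarditis. The groups did not overlap, and Bcl3 was the only member for which ICI-myocarditis 2 rather than 3 was highest. The mean count rose from 168 ± 54.2 to 606 ± 229. The difference between group means of log2 values was 1.82 ± 0.355 (± SE, adjusted p from limma = 0.0101). It was past the threshold in all 18 alternatives and was 2.00 without control 2 (limma adjusted p = 0.00331). Of 2475 exonic bases of Bcl3, 161 are shared with Gm16175 on the opposite strand.

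Nfkbie encodes IκBε, a cytoplasmic inhibitor that is itself induced with a delay after NF-κB activation, and lies at chr17:45555703-45563169 on the plus strand. Its counts were 116, 365, 144 and 70.1 in controls and 488, 707 and 819.9 in ICI-myocarditis. The controls spread over a 5.21-fold range, the widest of the 10 members, with control 2 nearest to the ICI-myocarditis libraries. The mean count rose from 174 ± 131 to 671 ± 169. The difference between group means of log2 values was 2.18 ± 0.487 (± SE, adjusted p from limma = 0.0171). Without control 2 this difference was 2.63 (limma adjusted p = 0.000488). The call was lost without control 1 (limma adjusted p = 0.0547), control 3 (0.0526), ICI-myocarditis 2 (0.0568) or ICI-myocarditis 3 (0.0732), with log2 fold changes from 2.02 to 2.18.

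Nfkbiz encodes IκBζ, a nuclear protein needed for a subset of secondary response genes such as Il6 and Lcn2, and lies at chr16:55811375-55838899 on the minus strand. Its counts were 328, 788, 335 and 173 in controls and 999.6, 1057 and 1398 in ICI-myocarditis. The groups did not overlap, although control 2 lay closer to the ICI-myocarditis libraries than to the other controls. The mean count rose from 406 ± 266 to 1151 ± 215. The difference between group means of log2 values was 1.70 ± 0.432 (± SE, adjusted p from limma = 0.0283). Without control 2 this difference was 2.09 (limma adjusted p = 0.00106). The call for Nfkbiz was the least stable of the 4 and held in 11 of 18 alternatives. It was lost without control 1 (limma adjusted p = 0.0771), control 3 (0.0786) or any single ICI-myocarditis library (0.0586, 0.0702 and 0.112), with library size scaling (0.0509), and by edgeR (adjusted p = 0.0598).

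Nfkbia, the fast-acting IκBα gene and the most abundant member per length, was the exception among the inhibitor and feedback members. It lies at chr12:55489410-55492647 on the minus strand. Its normalized counts were 2405, 1457, 1028 and 2062 in controls and 1900.0, 1989 and 2596 in ICI-myocarditis. The groups overlapped widely, since controls 1 and 4 exceeded ICI-myocarditis 1 and 2. Here control 2 was the second-lowest control, whereas it was the highest for the 4 genes that rose and for Nfkb1, Rel and Relb. The difference was 0.37 on the log2 scale (SE 0.296, interval -0.29 to 1.04, limma adjusted p = 0.444). It was 0.15 without control 3, 0.24 without ICI-myocarditis 3 and 0.55 without control 1.

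**Figure D2:**
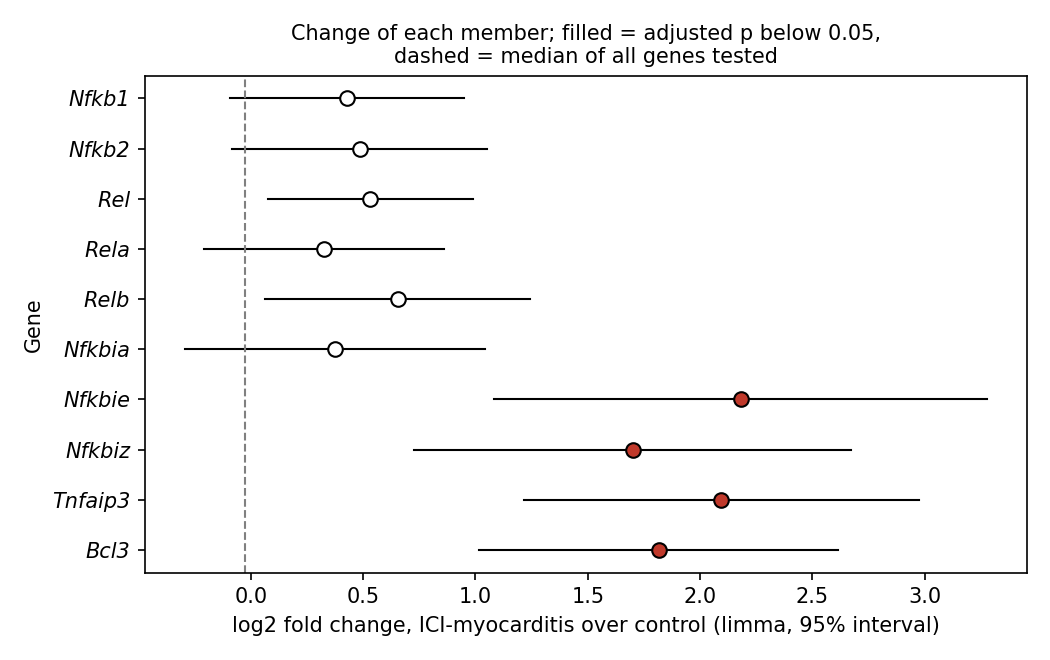
log2 fold change of ICI-myocarditis over control (horizontal) with limma's 95% interval for each member (vertical), filled where the adjusted p was below 0.05. The 4 filled points lie between 1.70 and 2.18 and the 6 open points between 0.33 and 0.65, while the dashed line marks the median of all genes tested, -0.02.

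Whether a member changed more than its partner was tested on 6 ratios within libraries, which do not depend on scaling. With 4 samples against 3, a two-sided exact permutation test cannot give a p below 0.0286. The ratio of Bcl3 to Nfkb1 was 0.0638, 0.0807, 0.0724 and 0.0514 in controls and 0.131, 0.228 and 0.175 in ICI-myocarditis, with no overlap. Its log2 difference of 1.39 reached that smallest p (exact permutation p = 0.0286) but not the threshold after adjustment over the 6 ratios (0.0857). The ratio of Nfkbie to Nfkbia was 0.0482, 0.251, 0.140 and 0.0340 in controls and 0.257, 0.355 and 0.316 in ICI-myocarditis. Control 2, at 0.251, almost reached ICI-myocarditis 1, and the log2 difference of 1.81 had an exact permutation p of 0.0571 (adjusted 0.0857). Without control 2 that difference was 2.31. The ratio of Tnfaip3 to Nfkbia was 0.0818, 0.362, 0.277 and 0.0941 in controls and 0.428, 0.569 and 0.685 in ICI-myocarditis (log2 difference 1.72, exact permutation p = 0.0571, adjusted 0.0857), and the difference was 2.09 without control 2.

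Between subunits the ratios moved little. Relb to Rela was 0.281, 0.356, 0.324 and 0.272 in controls and 0.367, 0.391 and 0.396 in ICI-myocarditis. These groups did not overlap, but by a log2 difference of 0.33 (exact permutation p = 0.0571, adjusted 0.0857). Rel to Rela differed by 0.20 (exact permutation p = 0.229, adjusted 0.274) and Nfkb2 to Nfkb1 by 0.06 (exact permutation p = 0.571, adjusted 0.571). Nfkb2 to Nfkb1 ranged only from 0.399 to 0.443 in controls and from 0.391 to 0.485 in ICI-myocarditis, and its log2 difference was -0.03 without ICI-myocarditis 2. Without control 1 the difference for Rel to Rela was 0.09. Since no ratio passed adjustment, the larger change of Nfkbie, Tnfaip3 and Bcl3 than of their partners is not established by this test.

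**Figure D3:**
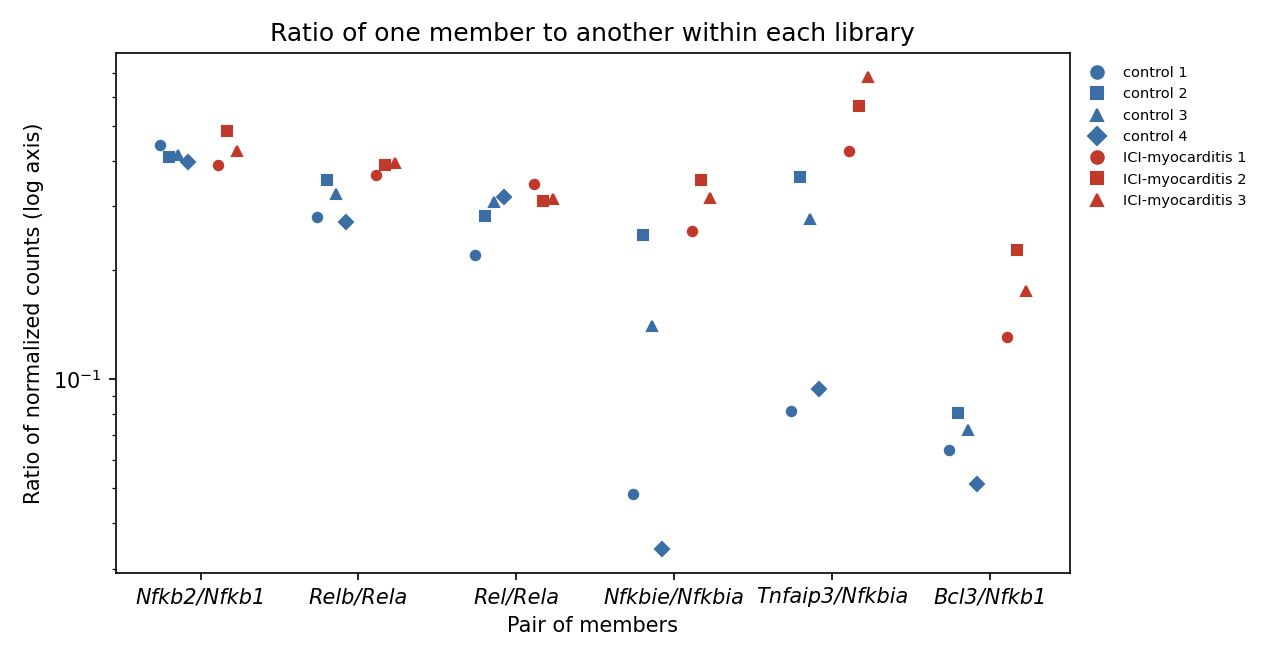
Ratio of normalized counts on a log axis (vertical) for 6 pairs of members (horizontal), with each symbol 1 library in the colours of its group. Red symbols lie above all blue ones for Relb/Rela, Nfkbie/Nfkbia, Tnfaip3/Nfkbia and Bcl3/Nfkb1, and the groups overlap for Nfkb2/Nfkb1 and Rel/Rela.

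Levels were also compared between members, as normalized counts per kilobase of annotated exon, all isoforms merged. In controls Nfkbia was highest at 1080 ± 382 per kilobase (SD, n = 4), followed by Rela at 429 ± 85.4, each apart from the next gene in every library. Nfkb2 (226 ± 46.0) and Nfkb1 (205 ± 37.0) overlapped each other and stood above Relb (104 ± 21.6). From Relb down, through Nfkbiz (80.9 ± 52.9), Bcl3 (67.9 ± 21.9), Nfkbie (57.1 ± 43.1) and Rel (48.7 ± 2.63) to Tnfaip3 (41.6 ± 21.7), each pair of neighbours overlapped. In ICI-myocarditis Nfkbia and Rela again led, at 1340 ± 235 and 543 ± 138 per kilobase (SD, n = 3). The next 7 genes, from Nfkb2 (320 ± 87.0) to Relb (166 ± 47.8), overlapped neighbour by neighbour. Among them were Bcl3 (245 ± 92.5), Nfkbiz (229 ± 42.9), Nfkbie (221 ± 55.4) and Tnfaip3 (172 ± 67.9), all of which had means below that of Relb in controls and above it in ICI-myocarditis. Rel was lowest, at 71.5 ± 15.4, apart from the gene above it. Lengths come from annotation and not from the isoforms expressed in these hearts, which limits comparison between genes.

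Upstream of the members, 7 of 9 ligand genes could be tested, and 6 passed as higher. Of these, 4 (Tnf, Lta, Tnfsf14 and Tnfsf11) reached the minimum count only through the ICI-myocarditis libraries. Passing in this way favours a difference, and the count is no support for the list. Ltb, a subunit of lymphotoxin, which signals through the noncanonical arm, had 8.76 to 53.0 normalized counts in controls and 256, 334 and 440.1 in ICI-myocarditis (a rise of 4.24 on the log2 scale, limma adjusted p = 0.00360). Tnfsf13b, which encodes the B cell survival factor BAFF, rose by 3.48 (limma adjusted p = 0.00340). Tnfsf11, which encodes RANKL, was at 0, 2.47, 1.12 and 2.50 normalized counts in controls and 22.5, 36.96 and 39.0 in ICI-myocarditis. With controls so near 0, its fold depends on the pseudocount and is not given. Il1b was at 13.1, 83.9, 15.6 and 1.25 in controls and 98.2, 76.8 and 71.8 in ICI-myocarditis, with overlap through control 2 (2.50, limma adjusted p = 0.124, and 0.0102 without control 2). Cd40lg and Il1a were too low to be tested.

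Of 13 receptor genes 9 passed as higher. Of the 13, Tnfrsf13c and Tnfrsf9 reached the minimum count only through ICI-myocarditis, and of these Tnfrsf9 was called. Tnfrsf1b, the second TNF receptor, common on leukocytes, had 452 to 1014 normalized counts in controls and 2463, 3053 and 5469 in ICI-myocarditis (a rise of 2.41 on the log2 scale, limma adjusted p = 0.00392). Tlr2 and Tlr9, which sense bacterial lipoproteins and unmethylated DNA, rose by 2.23 and 3.27 (limma adjusted p = 0.00374 and 0.00376), and without control 2 Tlr9 rose by 3.62. Il1r1, the signalling receptor of interleukin-1, had the highest p of the list, at 561 to 962 normalized counts in controls and 736 to 1129 in ICI-myocarditis (0.16, limma adjusted p = 0.714).

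Of 20 adaptors and ubiquitin ligases 6 rose, among them Traf1 and Myd88, with a median of 0.75. Myd88, the adaptor of Toll-like and interleukin-1 receptors, had 439 to 623 normalized counts in controls and 1273, 1082 and 1484 in ICI-myocarditis (1.33, limma adjusted p = 0.00423). Traf1, an adaptor induced by NF-κB itself, rose by 2.88 (limma adjusted p = 0.01). Irak1 was at 2344 to 3587 in controls and 2607 to 3087 in ICI-myocarditis (-0.06, limma adjusted p = 0.880), with a sign that changed between alternatives.

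Kinases were the list with the fewest calls, with 1 of 11 (Ikbke) and a median of 0.32, where 11.7% of all genes tested passed as higher. Ikbke, an inducible IKK-related kinase, had 59.5, 289.9, 87.1 and 35.03 normalized counts in controls and 462, 483 and 915 in ICI-myocarditis (2.77, limma adjusted p = 0.0176, and 3.35 without control 2). The call was lost without control 1 (limma adjusted p = 0.0573), control 3 (0.0530) or ICI-myocarditis 3 (0.0786). Map3k14, which encodes NIK, the kinase that starts the noncanonical arm, differed by 1.05 (limma adjusted p = 0.0598, and 0.00403 without control 2). Map3k8 differed by 0.95 (limma adjusted p = 0.109, and 0.0118 without control 2). Chuk, a catalytic IKK subunit, was at 847 to 1337 in controls and 1050 to 1106 in ICI-myocarditis (-0.11, limma adjusted p = 0.766).

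Of 13 other inhibitors 4 rose (Nfkbid, Tnip3, Zc3h12a and Fam105b, the row for Otulin), with a median of 0.31. Tnip3, an A20-binding protein, had 30.2 to 81.3 normalized counts in controls and 150.4, 223 and 306 in ICI-myocarditis (2.16, limma adjusted p = 0.00828). Nfkbid, a nuclear IκB, rose by 2.40 (limma adjusted p = 0.0234), but not without control 1, control 3 or any single ICI-myocarditis library (limma adjusted p from 0.0560 to 0.0954). Zc3h12a, which encodes the RNase regnase-1, rose by 1.0 (limma adjusted p = 0.0404), a call held in 8 of 18 alternatives. It was lost without any single library other than control 2 (limma adjusted p from 0.0515 to 0.173). Itch had the highest p of the list (0.04, limma adjusted p = 0.922).

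Genes known to be induced by NF-κB did not move as a block. Of 22 listed 18 could be tested, of which 7 rose, 1 fell and 10 did not pass. Of the 7, Cxcl5 and Saa3 reached the minimum count only through ICI-myocarditis. Ptgs2, which encodes the inducible cyclooxygenase, had 46.3 to 90.1 normalized counts in controls and 382, 401 and 772 in ICI-myocarditis (2.89, limma adjusted p = 0.00316). Vcam1, a leukocyte adhesion molecule of activated endothelium, rose by 2.07 (limma adjusted p = 0.00896). Ccl2, a monocyte chemoattractant, rose by 3.74 (limma adjusted p = 0.0182), but not without ICI-myocarditis 2 (0.0602) or ICI-myocarditis 3 (0.0769). Nos2 was at 384 to 1167 in controls and 311 to 1489 in ICI-myocarditis (0.06, limma adjusted p = 0.961). Sod2, the mitochondrial superoxide dismutase, named here because it was the 1 that fell, decreased by 1.22 (limma adjusted p = 0.0422). Its call was lost without control 1, 3 or 4 or any single ICI-myocarditis library. Ccl20 was at 0 in all 7 libraries, and Cxcl2, Il6 and Csf2 were too low to be tested.

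Over the 6 lists together 33 of 82 tested genes rose and 1 fell, where 11.7% and 4.00% of all genes tested did. Of the 82, 8 reached the minimum count only through ICI-myocarditis, and 7 of these are among the 33. The count of higher calls was 40 without control 2, 20 without control 1 or control 3, 19 without ICI-myocarditis 2 and 14 without ICI-myocarditis 3. The lists were drawn up with earlier results of these data known, so the counts describe these genes and do not single out the pathway.

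**Figure D4:**
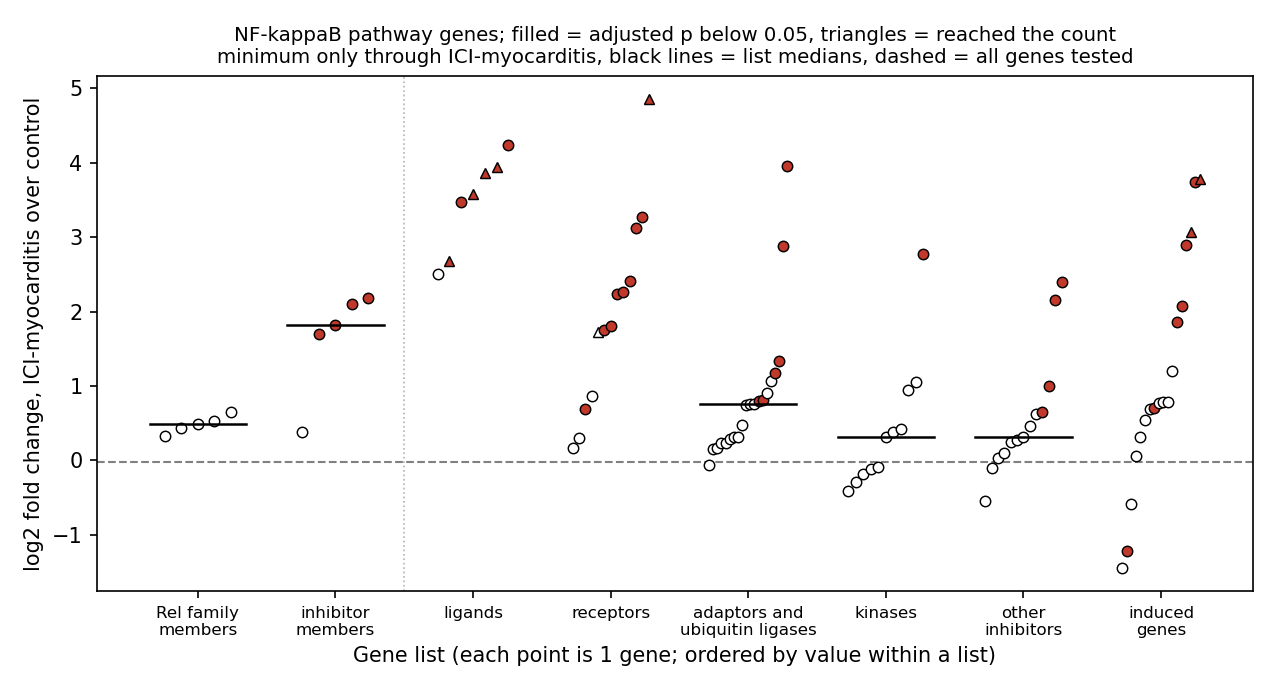
log2 fold change of ICI-myocarditis over control (vertical) for the Rel family and inhibitor members and for 6 lists of other pathway genes (horizontal), with each point 1 gene, filled where limma's adjusted p was below 0.05, triangles for genes that reached the minimum count only through ICI-myocarditis, and black lines at the medians of lists without such genes. Triangles are 4 of the 7 ligands, and kinases and other inhibitors have medians of 0.32 and 0.31, against -0.02 for all genes tested (dashed).

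Markers of leukocytes moved with the genes that rose. All 6 pan-leukocyte markers, all 7 T cell markers and all 8 macrophage and monocyte markers rose, and none was at 0 in all libraries. Of these, Cd3d reached the minimum count only through ICI-myocarditis. The summed leukocyte markers ran from 2131 to 7677 normalized counts in controls and from 22000 to 37160 in ICI-myocarditis. Control 2 held the 7677, and the other controls reached at most 2898. Controls 1 to 4 had summed T cell markers of 168, 1218, 232 and 120.1, against 4644 to 6951 in ICI-myocarditis, and summed macrophage markers were 11790 to 16390 and 47720 to 72980. Control 2 was thus also the control with the most leukocyte and T cell RNA. It was the highest control for Nfkbie, Nfkbiz, Tnfaip3 and Bcl3, and also for Nfkb1, Rel and Relb, which did not pass. ICI-myocarditis 3 was the highest library for the leukocyte, T cell and macrophage sums and for 9 of the 10 members. The lowest ICI-myocarditis library, however, was ICI-myocarditis 1 for all 10 members and ICI-myocarditis 2 for these sums. The leukocyte, T cell and macrophage sums were 22340, 5210 and 51810 in ICI-myocarditis 1 and 22000, 4644 and 47720 in ICI-myocarditis 2. The part of leukocyte number in the members' levels was not tested.

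Of the other marker lists, 1 of 4 tested B cell genes rose (Cd22, by 3.83), while Cd79a and Ms4a1 had log2 differences of 0.34 and -0.38, and their groups overlapped. The B cell sum of 36.3 to 116 in controls and 148 to 453 in ICI-myocarditis therefore rests on Cd22. Of 3 tested neutrophil genes 1 rose (Csf3r, by 2.91), while S100a8 and S100a9 differed by -0.20 and -0.62 and overlapped. The neutrophil sum of 45.4 to 208.5 in controls and 319 to 866.5 in ICI-myocarditis likewise rests on Csf3r. Ly6g was not analysed here, and Pax5, Mpo and Elane were too low to be tested. Of 8 cardiomyocyte markers none passed limma's threshold (2 at an unadjusted p under 0.05), although all 8 had log2 fold changes below 0, with sums of 1217000 to 2300000 in controls and 759400 to 1299000 in ICI-myocarditis. Of 6 endothelial markers 4 fell, and of 6 fibroblast markers 1 rose (Col1a1). The part of these shifts in the members' levels was not tested.

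**Figure D5:**
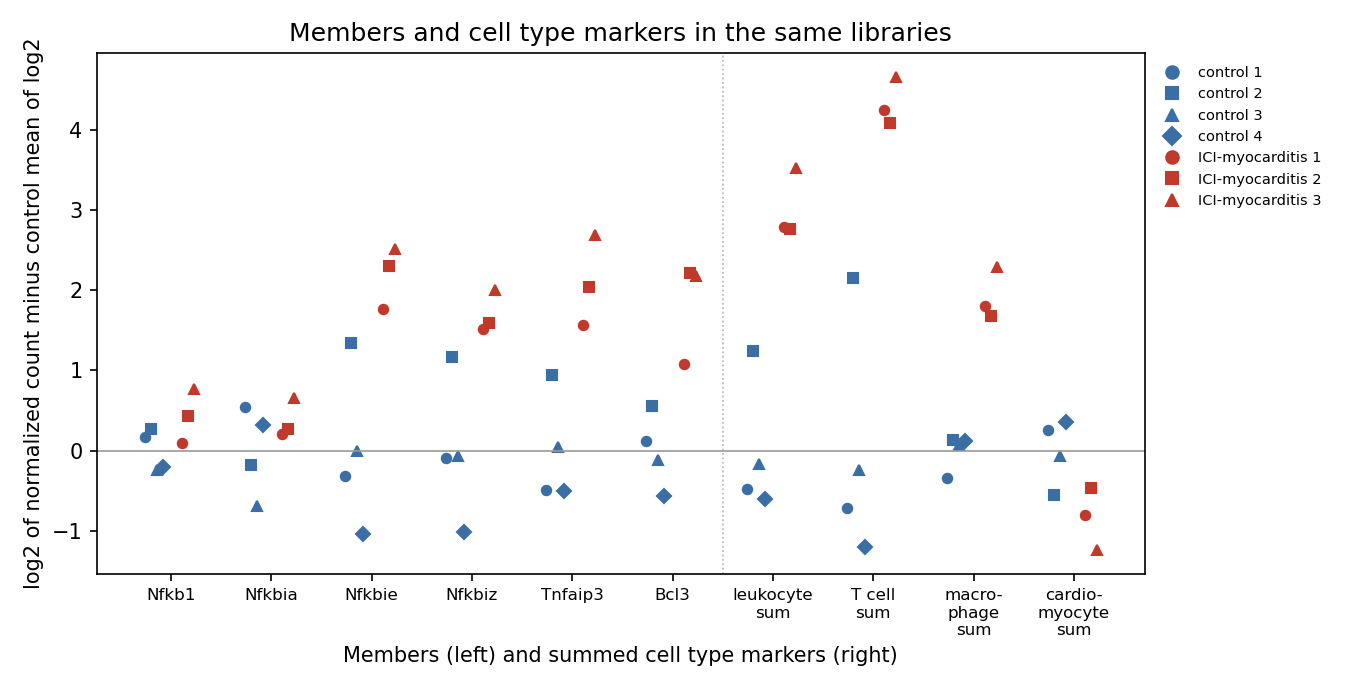
log2 normalized count of 6 members and of 4 summed marker lists (horizontal), each minus its mean of log2 values over the 4 controls (vertical), with each symbol 1 library in the colours of its group. Control 2 (blue squares) is the highest control for Nfkb1, Nfkbie, Nfkbiz, Tnfaip3, Bcl3 and for the leukocyte and T cell sums. For the macrophage sum control 2 is barely above control 4 (16390 against 16200 normalized counts). It is not the highest for Nfkbia or the cardiomyocyte sum.

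For the 3 members with the lowest p, the genes nearest in pattern were found by the root mean square distance between log2 values centred on the control mean, over 7 libraries. Nearest to Tnfaip3 were Stx11 (distance 0.127), a gene of cytotoxic granule release, and Apbb1ip (0.134), an integrin adaptor of leukocytes. Nearest to Nfkbie were Irf1 (0.122), an interferon-induced transcription factor, and Gata3 (0.159), a T cell transcription factor. Irf1 was at 1387, 3830, 1425 and 743 normalized counts in controls and 5993, 7376 and 9696 in ICI-myocarditis, with control 2 the highest control as for Nfkbie. Nearest to Bcl3 were Slfn9 (0.212) and Hivep3 (0.240). These are descriptions of 7 libraries in 2 groups.

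The authors' deposited table, made from the same libraries, gave an adjusted p below 0.05 to the same 4 members, and called 12.9% of the 16882 genes with an adjusted p higher. In the authors' deposited table the log2 fold changes were 2.05 for Tnfaip3, 1.95 for Nfkbie, 1.85 for Bcl3 and 1.5 for Nfkbiz, with adjusted p-values of 3.34e-05, 0.00126, 2.12e-05 and 0.00792. In the authors' deposited table the other 6 members had adjusted p-values from 0.0700 (Rel) to 0.569 (Nfkbia).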

How the data were processed

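Ventricular RNA of 7 mice was sequenced from stranded total RNA libraries. Per the submitters' processing notes, STAR 2.7.3 and the builds GRCm38 and mm10 were used. The counting program, annotation and use of strand are not given in the sources used here. The deposited table holds a signal per library, and its values are read counts scaled by a single factor for each library. It also holds, per the file headers, the authors' log2 fold change, p-value and adjusted p-value, and a score that is their test statistic. Each column divided by its smallest step was whole (within 0.01) for 100% of values, so reads were recovered. For control 1 the step was 1.008, a weaker sign. No column of other samples was present.

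limma 3.58.1 (R 4.3.3) was fitted to log2(normalized count + 1) for the 15258 genes that reached 10 normalized counts in 3 or more libraries, with trended, robust variance and Benjamini-Hochberg adjustment over all of them. edgeR 4.0.16, DESeq2 1.42.0 and limma-voom on the recovered reads, other pseudocounts (0.5 and 5), filters and scalings, and leaving out each library were alternatives. The fit was tested on simulated data, where it recovered 72.4% of genes changed by 1 on the log2 scale and 99.0% of those changed by 2. Of its calls there 4.05% were wrong. The simulation gave all genes the same spread, so it does not show how the fit does on genes as variable as the called members. Named genes were all members and, of each pathway list, the 3 with the lowest and the 1 with the highest p. A gene named by this rule and a marker gene are not reported here. Members, lists and tests were chosen with earlier results of these data known.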

Additional observations from a re-analysis of the deposited data

Results flagged for a closer look

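Log2 levels of 39 results were examined for a control that lay far from the rest, by Dixon's test, and 1 was found, where chance gives about 2. This was Tlr9, for which control 2 was high, with a gap of 0.868 of the range of the 4 controls. Control 2 was at the wider gap in 18 of the 39 results, on the high side in 17, and these results are not independent of one another. No member was so far apart.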

How the results depend on the processing

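Over 18 alternatives no member changed sign. With library size scaling the median of all genes tested was 0.13 instead of -0.02, and genes called lower numbered 311 against 610. They numbered 1281 by DESeq2, 1518 by limma-voom and 389 with the replicate number as a block. Pathway genes called lower were 2 by limma-voom and 0 with the block, against 1. Leaving out 1 library at a time gave 829 to 2252 genes called higher, 157 to 1088 lower, 2 to 4 members higher, 0 lower, 14 to 40 pathway genes higher and 0 to 1 lower. Libraries with the same replicate number did not deviate together (correlations of -0.271, -0.206 and -0.0784) and share only a number. The replicate block, in which control 4 has no partner, left all 4 member calls in place and gave 27 pathway genes higher. Without 1 library the log2 differences of the ratios ranged from -0.026 to 0.128 for Nfkb2/Nfkb1, 0.27 to 0.398 for Relb/Rela, 0.0904 to 0.267 for Rel/Rela, 1.36 to 2.31 for Nfkbie/Nfkbia, 1.38 to 2.09 for Tnfaip3/Nfkbia and 1.19 to 1.59 for Bcl3/Nfkb1. Values whose sign turned, none of them called, were, besides the Nfkb2/Nfkb1 ratio, those of Chuk (0.0482 with library size scaling), Irak1 (0.0978 with library size scaling, 0.0302 by limma-voom, 0.0376 with the block), Il1r1 (-0.00888 with the block), Itch (-0.104 by limma-voom) and Nos2 (-0.275 with the block). Leaving out 1 library gave -0.167 to 0.0376 for Irak1 (0.0052 without control 1), -0.0124 to 0.296 for Il1r1 (-0.00888 without control 4), -0.0937 to 0.11 for Itch and -0.394 to 0.734 for Nos2 (-0.275 without control 4, -0.17 without ICI-myocarditis 2). The causes were not tested. Low counts kept 6 of the 88 pathway genes from being tested.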
